A study of Mus musculus with 15 samples.

Results

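The genes described here encode the enzymes that make cholesterol and the other lipids of myelin, together with the factors that control sterol synthesis. They were chosen by gene symbol from a list of 39, and all 39 were among the 18536 genes of the deposited table. They fall into 18 enzymes of the sterol pathway, 3 sterol regulators, 11 enzymes of fatty acid synthesis, elongation and desaturation, and 7 enzymes of sphingolipid synthesis. RNA was sequenced from mouse auditory nerve at postnatal day 3 (P3), P7, P14, P21 and in adults, with 3 libraries per age. The adult age in days, the strain, the sex and the litter are not given in the labels. Each library came from the nerve tissue dissected out of both cochleae of 1 mouse. The ages are the only groups, so the question the design addresses is how expression differs between them. The titles of the 3 adult libraries begin with CTRL, whereas all other libraries are titled by age. What the adults were controls for is not given in the sources used here. In comparisons with adults, age cannot be told apart from whatever that label stands for.

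Myelin is a membrane rich in cholesterol, saturated and very long chain fatty acids and galactolipids, and the auditory nerve is wrapped by Schwann cells in the cochlea and by oligodendrocytes toward the brainstem. Cholesterol is built from acetyl-CoA through mevalonate, squalene and lanosterol, and most of these enzymes are known targets of the transcription factor SREBP2, which Insig proteins hold in the endoplasmic reticulum when sterol is plentiful. Ceramide, made from serine and fatty acyl-CoA, is turned into galactosylceramide and sulfatide, the typical glycolipids of myelin.

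The libraries held between 35250155 and 42258738 reads recovered from the deposited values, and all values below are normalised read counts (reads divided by 1 size factor per library). All 12 peripheral myelin markers were detected in every library, with summed counts of 194919 to 305789 at P3, 726631 to 894612 at P7, 927360 to 1244686 at P14, 556762 to 656035 at P21 and 389517 to 443674 in adults. The summed count of 15 oligodendrocyte markers, of which Mag and Mbp are also on the peripheral list, ran from 122142 to 144761 at P3, 378499 to 476004 at P7 and 295585 to 365461 in adults. At P14 that sum was 1020207 in replicate 3 against 371264 and 493302, and at P21 it was 618057 in replicate 2 against 351084 and 339351. Those libraries stand apart in many of the values below, so results that rest on them are given with and without them. The sum of 10 neuronal markers was 55338 to 87739 at P3 and 427049 to 454866 in adults. That of 7 osteoblast and osteoclast markers was 145717 to 257827 at P3 and 2638 to 4075 in adults. Adipocytes also make fatty acids, and 7 of 8 of their markers summed to between 15.8 and 316 in any library, with Plin1, Cfd, Cidec and Retn below the filter on low values. In these bulk samples fewer cells of a type and less RNA per cell cannot be told apart, and the part of the marker genes in the results was not tested.

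Differences between ages were tested with limma on log2(value + 1) over 16723 genes, and "rose" or "fell" is used only at an adjusted p under 0.05. All 39 genes passed the filter. Between at least some of the 5 ages 36 of the 39 differed in the joint test, where 85.4% of all genes tested did. The exceptions were Lss (joint limma adjusted p = 0.141), Dhcr7 (0.452) and Fasn (0.0703). None of the 39 had its highest mean at P3, the age at which 4520 of the 16723 genes tested were highest. The highest mean was at P7 for 12 of 18 sterol enzymes, at P14 for 6 of 7 sphingolipid enzymes and in adults for 5 of 11 fatty acid enzymes, against 18.1%, 7.53% and 30.9% of all genes tested. Without P14 replicate 3, a check chosen after seeing the data, these counts were 14 of 18 (3009 of the 16723 genes tested), 4 of 7 (8.63% of them) and 5 of 11. Hmgcs1, Dhcr7 and Gal3st1 then had their highest mean at P7 and Degs1 at P21.

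**Figure D1:**
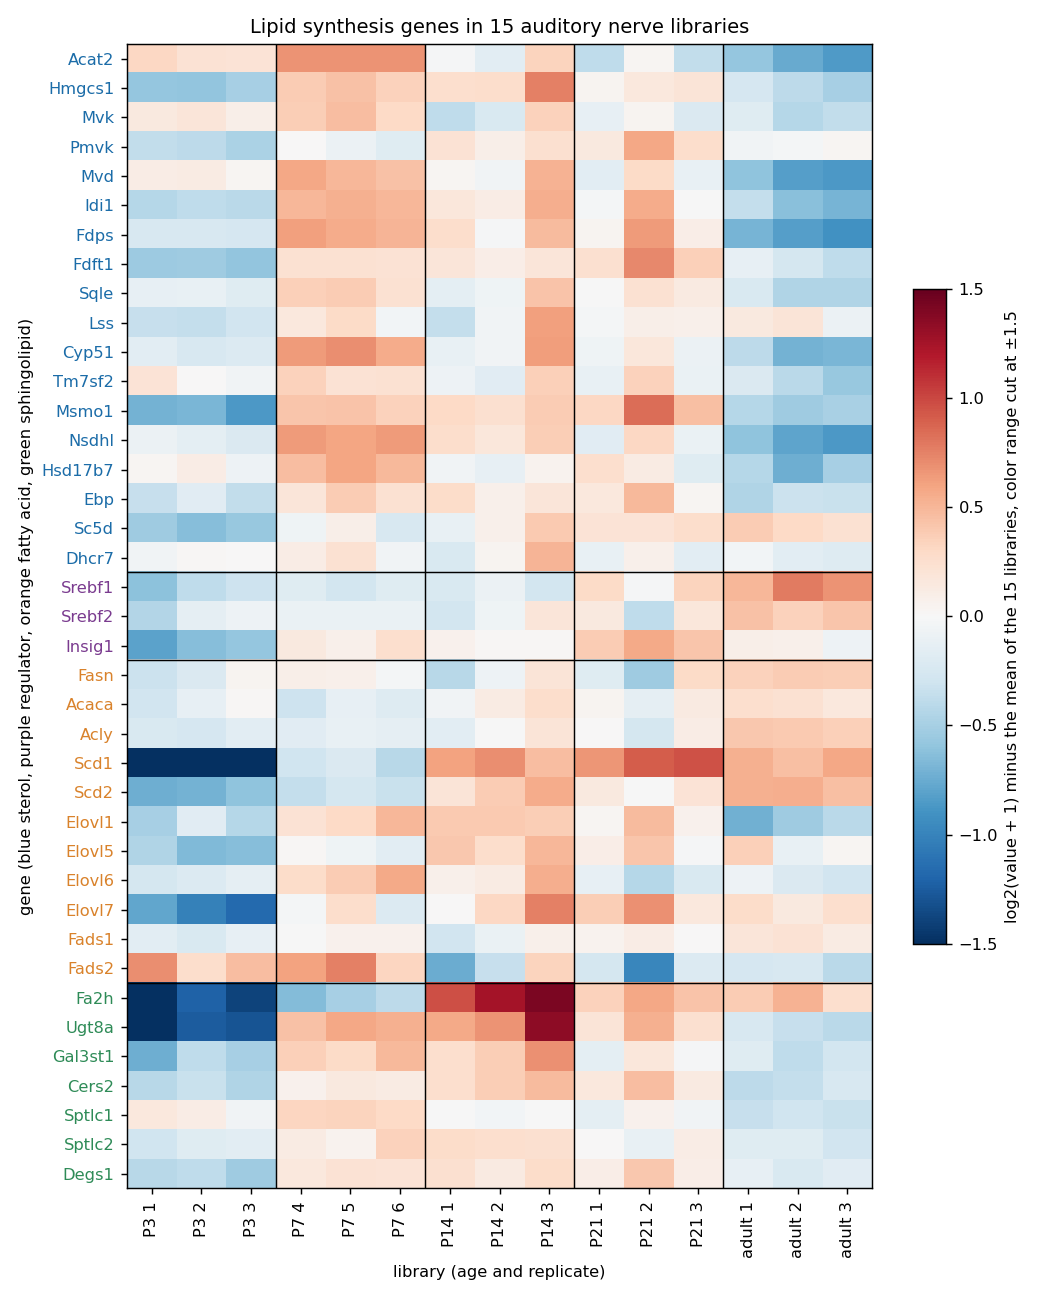
Heat map of the 39 genes (rows, grouped by role) in the 15 libraries (columns, ordered by age). Colour gives log2(value + 1) minus the gene's mean over the 15 libraries, with red above and blue below that mean and the colour range ending at ±1.5; most sterol rows are reddest at P7, most sphingolipid rows are red at P7 and P14, and the rows of Srebf1, Acly and Scd2 are reddest or near reddest in adults.

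From P3 to P7 the sterol pathway was higher along nearly its whole length. In this comparison 28 of the 39 genes rose and 0 fell, where 28.1% of all genes tested were called, 15.4% higher and 12.8% lower. None fell by DESeq2, edgeR or limma-voom on the recovered reads either, and 0 were lower at an unadjusted p under 0.05. The median log2 fold change was 0.51 for the 39 genes and -0.02 for all genes tested. By role, 14 of 18 sterol enzymes, 1 of 3 regulators, 6 of 11 fatty acid enzymes and 7 of 7 sphingolipid enzymes rose. The calls of 5 genes were lost on leaving out any 1 of several libraries. That of Acat2 was lost without P3 replicate 2 or 3 or any P7 library (adjusted p up to 0.0762), that of Pmvk without P3 replicate 2 or 3 or P7 replicate 4 or 5 (up to 0.0918), and that of Sqle without P3 replicate 3 or P7 replicate 4 or 5 (up to 0.0581). That of Mvd was lost without any of 8 libraries, namely all of P3 and P7 and adult replicates 2 and 3 (up to 0.133), and that of Sptlc1 without P3 replicate 3 or P7 replicate 5 (up to 0.0808).

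The largest rise among sterol enzymes was that of Msmo1, the oxidase that starts the removal of the C4 methyl groups of sterols (chr8:64718145-64733578, mm10). Its normalised counts were 2543, 2587 and 2302 at P3, 5550.2, 5630.1 and 5287 at P7, 5127, 4946 and 5425 at P14, 5185, 7439 and 5723 at P21 and 3107, 2884 and 2970.1 in adults. All P7 libraries lay above all P3 libraries, the P14 range overlapped that of P7, P21 replicates 2 and 3 lay above and replicate 1 below every P7 library, and adults lay between P3 and P7. The log2 fold change of P7 over P3 was 1.15 ± 0.11 (SE), or 2.22-fold, with a limma adjusted p of 1.25e-05. Hmgcs1 condenses acetoacetyl-CoA and acetyl-CoA ahead of mevalonate (chr13:119690351-119708260). Its counts were 13674, 13544 and 14504 at P3, 26640.4, 27712 and 26143 at P7, 24408, 24563 and 34496 at P14, 21107, 22874 and 23509 at P21 and 17194, 15578 and 14457 in adults. The P7 libraries did not overlap those of P3 (0.95 ± 0.11, adjusted p = 0.000104), P14 replicate 3 was the highest of all 15, and the adult libraries lay just above the highest P3 library or, for replicate 3, just below it. Per kilobase of exon Hmgcs1 was the most abundant sterol enzyme, with a mean of 4650 over the 15 libraries against 1123 for Idi1, the next sterol enzyme in that order.

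The other sterol enzymes that rose at P7 spanned the pathway. Idi1, which isomerises isopentenyl diphosphate, rose by a log2 fold change of 0.92 ± 0.15, adjusted p = 0.000774. Cyp51, the demethylase of lanosterol, rose by 0.83 ± 0.16, adjusted p = 0.00202. Fdps, which makes farnesyl diphosphate, rose by 0.80 ± 0.15, adjusted p = 0.00191, and its counts were 459, 460.3 and 457 at P3, 831, 798 and 772 at P7, 651, 539 and 757 at P14, 559, 848 and 583 at P21 and 335, 305 and 290.4 in adults. The P7 libraries of Fdps all lay above the P3 libraries, and all adult libraries lay below every other library. Fdft1, squalene synthase, rose by 0.78 ± 0.10, adjusted p = 0.00016, and Nsdhl, the sterol dehydrogenase that follows Msmo1, by 0.77 ± 0.11, adjusted p = 0.000314. Smaller rises were those of Ebp, a sterol isomerase (0.56 ± 0.11), Sc5d, a sterol desaturase (0.51 ± 0.11), Hsd17b7, a keto reductase (0.49 ± 0.11), Sqle, squalene epoxidase (0.46 ± 0.12), Acat2, a thiolase (0.43 ± 0.13), Mvd, the mevalonate diphosphate decarboxylase (0.42 ± 0.15), and Pmvk, phosphomevalonate kinase (0.32 ± 0.10). The 4 sterol enzymes not called were Mvk, mevalonate kinase (0.23 ± 0.15, adjusted p = 0.258), Lss, lanosterol synthase (0.47 ± 0.18, adjusted p = 0.0716), Tm7sf2, a sterol reductase (0.21 ± 0.16, adjusted p = 0.331), and Dhcr7, a sterol reductase late in the pathway (0.10 ± 0.14, adjusted p = 0.628). For Mvk, Lss and Tm7sf2 all P7 libraries still lay above all P3 libraries, whereas those of Dhcr7 overlapped.

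**Figure D2:**
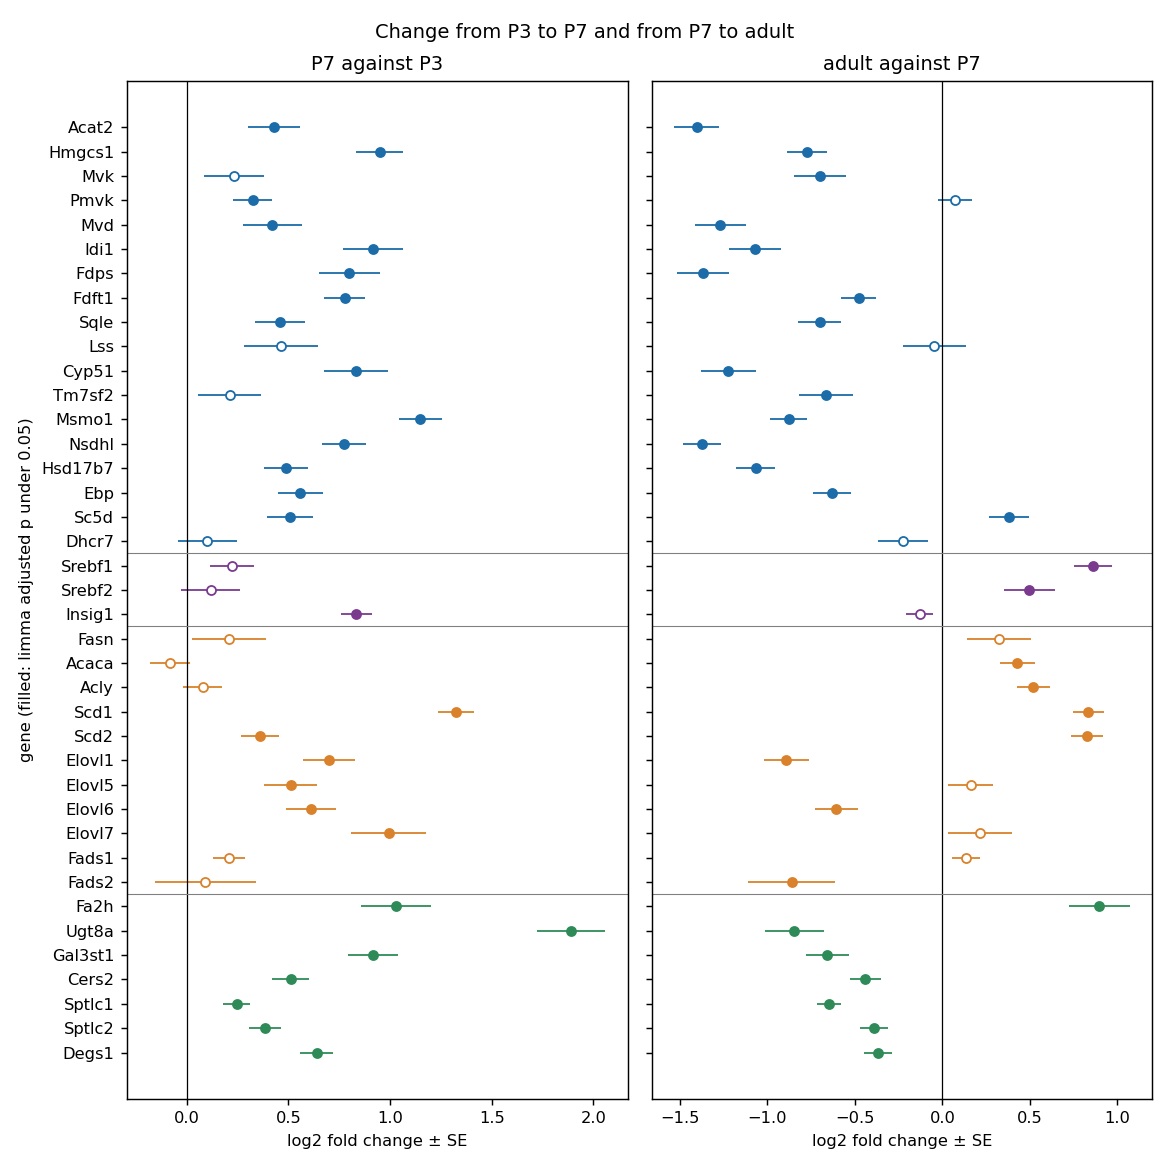
Log2 fold change with its standard error for each of the 39 genes, P7 against P3 on the left and adult against P7 on the right (filled points: limma adjusted p under 0.05; blue sterol, purple regulator, orange fatty acid, green sphingolipid). On the left 28 points are filled and all of these lie above 0, and on the right 23 filled points lie below 0 and 8 above.

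Promoter sequence is shown for some genes with large rises in that comparison and for 1 gene that was not called, since the sterol response element (SRE) and the neighbouring NF-Y box are the known sequence elements through which SREBP proteins act. RefSeq promoters (GRCm38.p6, 250 bases before to 50 after the start site) were found for 32 of the 39 genes. Below are the 250 bases before the start site, 5′ to 3′ on the strand of the gene, for the enzymes Msmo1 (chr8:64733579-64733828, minus strand), Hmgcs1 (chr13:119690101-119690350, plus strand) and Idi1 (chr13:8885356-8885605, plus strand), which had the largest sterol rises among genes with a sequence. They are followed by Mvk (chr5:114444019-114444268, plus strand), the uncalled gene with the most NF-Y boxes, and Ugt8a (chr3:125938653-125938902, minus strand), which had the largest rise of all 39 genes. Capitals mark each match to the NF-Y box CCAAT on either strand (ATTGG when on the other strand) and each match to the SRE motif TCACNCCAC.
Msmo1: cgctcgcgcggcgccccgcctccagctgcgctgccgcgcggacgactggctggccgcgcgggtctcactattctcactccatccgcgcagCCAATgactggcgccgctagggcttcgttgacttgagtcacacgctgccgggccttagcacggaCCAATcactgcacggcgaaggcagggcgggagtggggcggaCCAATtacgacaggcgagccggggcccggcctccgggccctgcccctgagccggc
Hmgcs1: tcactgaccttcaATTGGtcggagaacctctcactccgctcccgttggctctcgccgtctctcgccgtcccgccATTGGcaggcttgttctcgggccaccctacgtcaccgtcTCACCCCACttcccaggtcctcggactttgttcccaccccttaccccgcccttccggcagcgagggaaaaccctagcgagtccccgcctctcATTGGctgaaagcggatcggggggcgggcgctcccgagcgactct
Idi1: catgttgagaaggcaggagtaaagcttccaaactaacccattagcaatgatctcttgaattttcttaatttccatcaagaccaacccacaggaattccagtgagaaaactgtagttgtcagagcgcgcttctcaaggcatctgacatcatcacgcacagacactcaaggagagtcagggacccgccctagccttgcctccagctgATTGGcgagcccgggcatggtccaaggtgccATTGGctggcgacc
Mvk: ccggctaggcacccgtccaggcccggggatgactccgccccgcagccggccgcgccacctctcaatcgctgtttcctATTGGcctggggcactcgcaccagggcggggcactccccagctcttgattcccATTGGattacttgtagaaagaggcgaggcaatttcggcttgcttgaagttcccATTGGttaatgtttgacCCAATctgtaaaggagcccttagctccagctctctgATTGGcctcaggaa
Ugt8a: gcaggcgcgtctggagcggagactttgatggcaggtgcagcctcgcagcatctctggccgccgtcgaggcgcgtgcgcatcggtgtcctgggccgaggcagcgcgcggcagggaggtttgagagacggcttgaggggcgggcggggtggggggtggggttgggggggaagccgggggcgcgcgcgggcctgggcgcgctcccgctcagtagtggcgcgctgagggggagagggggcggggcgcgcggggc
Msmo1 has 3 NF-Y boxes and Idi1 has 2. Hmgcs1 has 3 in the stretch shown and another just after its start site, with the SRE match TCACCCCAC beginning 137 bases before the start. Mvk, whose P7 libraries all lay above its P3 libraries though the difference was not called, has 5 boxes. Of the other uncalled sterol enzymes with a sequence, Dhcr7 has 2 in 1 of its 3 promoters and none in the others, and Tm7sf2 and Lss have 1 each. Ugt8a has no match to either motif. Over the full 300 base windows and both strands, CCAAT was present in 14 of 15 sterol enzymes with a sequence, 3 of 3 regulators, 4 of 8 fatty acid enzymes and 4 of 6 sphingolipid enzymes, against 41.1% of 27025 genes with a promoter. The SRE letters were present in Hmgcs1 alone of the 32, and in 1.44% of all genes. Only matches to the motif as written were counted, so a promoter without one is not shown to lack an SRE. No SRE match shared bases with a CCAAT match, and a match is a description of the sequence only.

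Of the 3 regulators 1, Insig1, rose at P7 over P3, and all 3 were higher in adults than at P3. Srebf2 encodes SREBP2, the main activator of sterol enzymes, and its counts were 4302, 5293 and 5531 at P3, 5454, 5417 and 5447 at P7, 4796, 5557 and 6585 at P14, 6467, 4461 and 6531 at P21 and 7879, 7401 and 7751 in adults. The P7 libraries lay inside the range of P3 and the adult libraries above all others. The log2 fold change was 0.12 ± 0.15, adjusted p = 0.578 at P7 over P3 and 0.61 ± 0.15, adjusted p = 0.00201 for adult over P3. The adult call was lost under quantile normalisation (adjusted p = 0.0502). The ratio of Hmgcs1 to Srebf2 counts was 2.56 to 3.18 at P3, 4.80 to 5.12 at P7 and 1.87 to 2.18 in adults, with no overlap between these ages. Insig1, the retention protein that is itself induced by SREBP, had counts of 1873, 2103 and 2185 at P3, 3629.7, 3461 and 3887 at P7, 3429, 3320.2 and 3325 at P14, 4261, 4856 and 4359 at P21 and 3468, 3464 and 3111 in adults. It was lowest in the P3 libraries and highest in the P21 libraries, with no overlap with their neighbouring ages (0.83 ± 0.08, adjusted p = 1.32e-05 for P7 over P3; 0.42 ± 0.08, adjusted p = 0.00573 for P21 over P14; -0.42 ± 0.08, adjusted p = 0.000946 for adult over P21). The P21 call of Insig1 was lost when only those ages entered the fit (adjusted p = 0.0893). Srebf1 encodes SREBP1, known for driving fatty acid enzymes, and its counts were 4351, 5123 and 5406 at P3, 5904, 5525 and 5881 at P7, 5682, 6302 and 5520.3 at P14, 8131, 6582 and 8428 at P21 and 9407, 11464 and 10638 in adults. P7 and P14 libraries overlapped, P21 lay higher and every adult library lay above every earlier one. The log2 fold change of adult over P3 was 1.08 ± 0.11, or 2.12-fold (adjusted p = 9.82e-07).

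**Figure D3:**
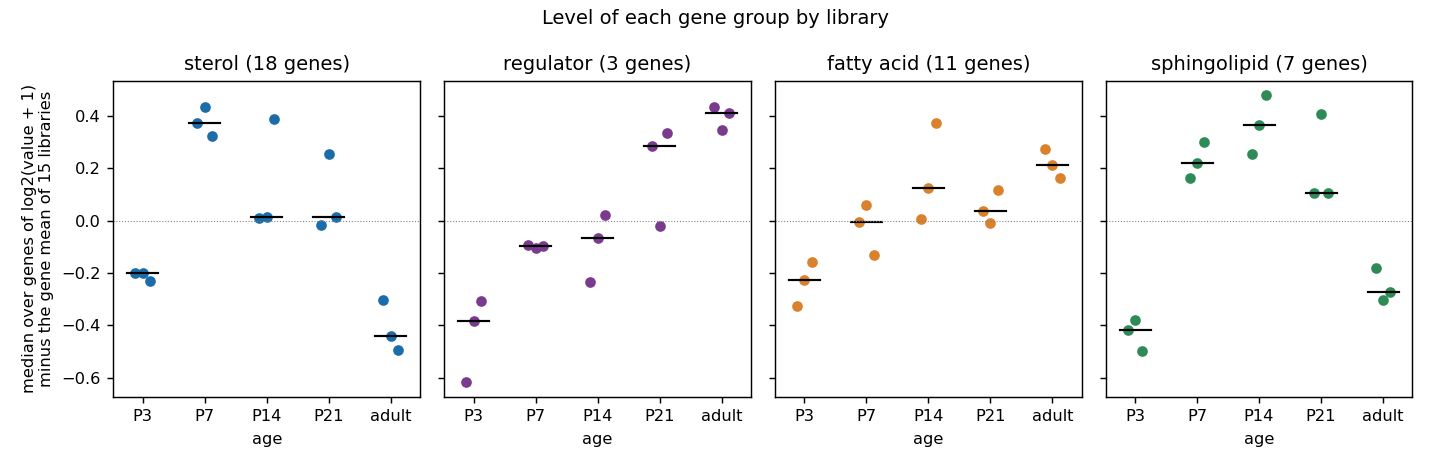
Median over the genes of a role of log2(value + 1) minus each gene's mean over 15 libraries (vertical axis) for each library (points, 3 per age; black bar, middle library). Sterol medians run from 0.32 to 0.43 at P7 and from -0.49 to -0.30 in adults, with P14 replicate 3 (0.39) and P21 replicate 2 (0.25) above the other libraries of their ages, whereas the medians of the 3 regulators are highest in adults (0.35 to 0.44).

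Among fatty acid enzymes the 6 that rose at P7 were Scd1 and Scd2 and the elongases Elovl1, Elovl5, Elovl6 and Elovl7. Scd1 introduces the double bond of oleate (chr19:44394450-44407709). Its counts were 5639.9, 5328 and 5648 at P3, 13946, 14781 and 12938 at P7, 26139.8, 27900.5 and 23704 at P14, 27162, 32266 and 33352 at P21 and 24853, 23511 and 25809 in adults. No library of P3 reached those of P7, and no library of P7 reached those of P14. The log2 fold change was 1.32 ± 0.09 at P7 over P3 (2.50-fold, adjusted p = 1.71e-06) and 0.90 ± 0.09 at P14 over P7 (adjusted p = 2.81e-06). Adults stood 4.46-fold above P3 (2.16 ± 0.09, adjusted p = 2.32e-10), the largest such difference among the 39 genes. Scd2, its paralog and the main form in brain (chr19:44293676-44306862), had counts of 48232, 49097 and 53035 at P3, 62834, 66652 and 63461 at P7, 91957, 104755 and 117835 at P14, 89169, 79677 and 92624 at P21 and 115791, 117450.00 and 109390.00 in adults. Its steps were smaller (0.36 ± 0.09 at P7 over P3 and 0.70 ± 0.09 at P14 over P7), P21 replicate 2 was the lowest of its age, and P14 and adult libraries overlapped. The call at P7 over P3 was lost under quantile normalisation (adjusted p = 0.122). Per kilobase of exon Scd2 had the highest mean of the 39 genes, 15397 against 4129 for Scd1, and the order of these genes was the same with the mean transcript length. The ratio of Scd1 to Scd2 counts, with no length correction, was 0.106 to 0.117 at P3, 0.204 to 0.222 at P7, 0.201 to 0.284 at P14, 0.305 to 0.405 at P21 and 0.200 to 0.236 in adults. The transcripts of these paralogs are 95.5% identical over 623 bases, so some of their reads could be shared. P14 ratios overlapped those of P7 and adults, and P21 ratios lay above all others.

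Elovl7, an elongase of saturated acyl chains, showed the largest rise at P7 among elongases (0.99 ± 0.18, adjusted p = 0.00178). Elovl1, which makes very long chains for sphingolipids, rose by 0.70 ± 0.13, Elovl6, which elongates palmitate, by 0.61 ± 0.12, and Elovl5, which elongates polyunsaturated acyl chains, by 0.51 ± 0.13. The enzymes that supply acyl chains were not called at this step. The log2 fold change was 0.21 ± 0.18, adjusted p = 0.414 for Fasn, fatty acid synthase, -0.08 ± 0.10, adjusted p = 0.575 for Acaca, acetyl-CoA carboxylase, and 0.08 ± 0.10, adjusted p = 0.575 for Acly, ATP citrate lyase. The desaturases of polyunsaturated chains, Fads1 (0.21 ± 0.08, adjusted p = 0.0647) and Fads2 (0.09 ± 0.25, adjusted p = 0.816), were not called.

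All 7 sphingolipid enzymes rose at P7. Ugt8a attaches galactose to ceramide to make galactosylceramide (chr3:125865272-125938652). Its counts were 4709, 5929 and 5755 at P3, 19034, 21088 and 20345 at P7, 20898, 22447 and 35669 at P14, 16089, 20344 and 16596 at P21 and 11961, 11078 and 10626 in adults. Every P7 library was over 3 times the highest P3 library, P14 replicate 3 stood far above the other P14 libraries, and adults lay between P3 and P7. The rise at P7 was 1.89 ± 0.17, or 3.70-fold (adjusted p = 1.01e-05). Fa2h adds the hydroxyl group carried by many myelin galactolipids (chr8:111345138-111393821). Its counts were 1072, 1862 and 1655 at P3, 2767, 3060.04 and 3313 at P7, 8501, 10330.00 and 11579 at P14, 5524, 6498 and 5809.6 at P21 and 5635, 6239 and 5155 in adults. The P14 libraries of Fa2h exceeded all others, and P21 and adult libraries overlapped. Fa2h rose by 1.03 ± 0.17, adjusted p = 0.000993 at P7 over P3 and by 1.73 ± 0.17, or 3.31-fold, at P14 over P7 (adjusted p = 3.55e-06). The ratio of Fa2h to Ugt8a counts was 0.228 to 0.314 at P3, 0.145 to 0.163 at P7 and 0.325 to 0.460 at P14. It was 0.319 to 0.350 at P21, overlapping the P14 range, and 0.471 to 0.563 in adults. This ratio was lowest at P7. Gal3st1, which sulfates galactosylceramide to sulfatide, had counts of 1434, 1824 and 1681 at P3, 3049, 2905 and 3331 at P7, 2822, 3056 and 3832 at P14, 2149, 2662 and 2346 at P21 and 2097, 1819 and 1968 in adults. Its P7 libraries lay above P3 (0.92 ± 0.12, adjusted p = 0.000208) and its P14 libraries overlapped those of P7. The ratio of Gal3st1 to Ugt8a was 0.292 to 0.308 at P3 and 0.138 to 0.164 at P7.

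Enzymes of the ceramide backbone changed less. Sptlc1 and Sptlc2, subunits of serine palmitoyltransferase at the entry to the pathway, rose by 0.25 ± 0.07 and 0.39 ± 0.08 at P7 over P3. Cers2, the synthase of very long chain ceramides, rose by 0.51 ± 0.09, adjusted p = 0.00119 with counts of 6613, 6996 and 6475 at P3, 9233, 9767 and 9609 at P7, 10519, 11394 and 12298 at P14, 9848, 12163 and 9685 at P21 and 6745, 6862 and 7486 in adults. Degs1, which desaturates dihydroceramide, rose by 0.64 ± 0.08, adjusted p = 0.000144. For Cers2 and Degs1 the P7 libraries lay above all P3 libraries, and for Cers2 the adult libraries overlapped those of P3.

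**Figure D4:**
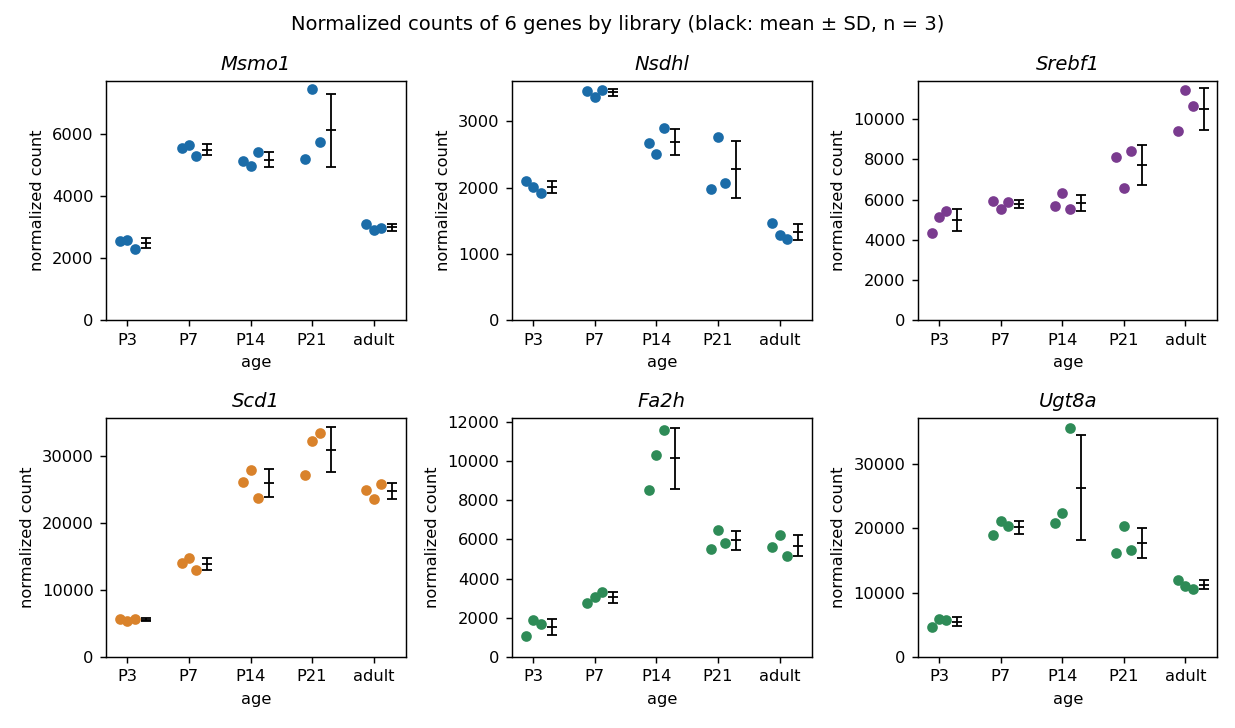
Normalised counts of Msmo1, Nsdhl, Srebf1, Scd1, Fa2h and Ugt8a in each library (coloured points, 3 per age, vertical axes from 0) with the mean and SD of each age in black. The sterol genes Msmo1 and Nsdhl are high at P7 and low in adults, Srebf1 is highest in adults, Scd1 climbs to P21, Fa2h peaks at P14, and 1 P14 library of Ugt8a reaches 35669.

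Between P7 and P14, 7 of the 39 genes rose and 7 fell, where 48.1% of all genes tested were called, 24.3% higher and 23.8% lower, so the share of members called was below that of all genes in both directions; with quantile normalisation 5 rose and 10 fell. The sterol enzymes that fell were Acat2 (-0.62 ± 0.13, adjusted p = 0.00127), Hsd17b7 (-0.55 ± 0.11, adjusted p = 0.001), Cyp51 (-0.48 ± 0.16, adjusted p = 0.0227), Mvk (-0.47 ± 0.15, adjusted p = 0.0193) and Nsdhl (-0.36 ± 0.11, adjusted p = 0.0164), and Pmvk rose (0.27 ± 0.10, adjusted p = 0.0339). Scd1, Scd2, Elovl5 (0.46 ± 0.13, adjusted p = 0.0097) and Acaca (0.32 ± 0.10, adjusted p = 0.0172) rose among fatty acid enzymes. Fa2h and Cers2 (0.26 ± 0.09, adjusted p = 0.0294) rose and Sptlc1 fell (-0.33 ± 0.07, adjusted p = 0.00113) among sphingolipid enzymes. Fads2, the desaturase that starts polyunsaturated chain synthesis, had counts of 3672, 2722 and 3116 at P3, 3459.8, 3843 and 2829 at P7, 1350.2, 1784 and 2859 at P14, 1886, 1155 and 1959.7 at P21 and 1907, 1927 and 1711 in adults. It fell by -0.82 ± 0.25, adjusted p = 0.0151, although P14 replicate 3 overlapped the P7 libraries.

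The P14 counts rested on replicate 3, the library with the highest oligodendrocyte sum. It was the highest P14 library for 16 of 18 sterol enzymes. Without it and P21 replicate 2, an alternative chosen after seeing the data, 22 genes were called, 7 higher and 15 lower. Of the sterol enzymes 11 then fell and 1 rose, against 5 and 1 with all libraries, and the median sterol log2 fold change was -0.38 against -0.23. The share of all genes called in that fit is not given here. It also lowered p-values at P7 over P3, where neither library enters the fold change. There the limma adjusted p went from 0.258 to 0.0353 for Mvk and from 0.0716 to 0.00429 for Lss at the same fold changes. The added calls therefore cannot be read as larger differences alone. Mvd (-0.34 ± 0.15 with all libraries) was in that fit at -0.52 (adjusted p = 0.000285), Sqle at -0.43 (0.000793), Fdps at -0.43 (0.00277) and Idi1 at -0.36 (0.00298). Without P14 replicate 3 alone 10 sterol enzymes fell and 0 rose, and Idi1 was not among them. Leaving out single libraries ended the calls of Mvk (P7 replicate 5, P14 replicates 1 and 2), Cyp51 (P7 replicates 4 and 5, P14 replicates 1 and 2), Nsdhl (P14 replicate 2), Pmvk (P7 replicates 5 and 6, P14 replicates 1 and 3), Acaca (P7 replicate 4, P14 replicate 3), Fads2 (P7 replicate 5, P14 replicate 1) and Cers2 (all P7 libraries, P14 replicates 2 and 3), with adjusted p between 0.0516 and 0.119. Quantile normalisation ended those of Pmvk (0.21, adjusted p = 0.105) and Cers2 (0.12, adjusted p = 0.254).

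Few genes differed between P14 and P21, among the 39 as among all genes tested. Of the 39 genes 2 rose and 3 fell. Of all genes tested 9.29% were called, 3.29% higher and the other 1003 genes lower. With quantile normalisation 3 of the 39 rose and 2 fell. Insig1 and Srebf1 (0.40 ± 0.11, adjusted p = 0.0378) rose, and Fa2h (-0.76 ± 0.17, adjusted p = 0.0162), Elovl6 (-0.51 ± 0.12, adjusted p = 0.0203) and Gal3st1 (-0.43 ± 0.12, adjusted p = 0.0429) fell. No sterol enzyme was called by limma, edgeR or limma-voom and 1 of the 18 by DESeq2, while 2 were higher and 3 lower at an unadjusted p under 0.05. The calls were fragile. Without P14 replicate 3 only Insig1 was called of the 39, and without P21 replicate 2 there were 8 calls. The adjusted p of Srebf1 reached 0.143 on leaving out 1 of 8 libraries (P7 replicates 4 to 6, P14 replicates 1 and 3, P21 replicates 1 and 3, adult replicate 3) and that of Gal3st1 reached 0.180 on leaving out 1 of 10 (P3 replicate 3, all P7 libraries, P14 replicates 2 and 3, P21 replicates 1 and 3, adult replicates 2 and 3). Quantile normalisation also ended the call of Gal3st1 (-0.39, adjusted p = 0.0635). The call of Elovl6 was lost without P14 replicate 3 (0.0801), and that of Fa2h without P14 replicate 2 or 3 (0.0513 and 0.0781).

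From P21 to adult the sterol pathway fell. Of the 39 genes 22 fell and 5 rose, where 49.4% of all genes tested were called, 24.1% lower and 25.4% higher; with quantile normalisation 22 fell and 2 rose. Sterol enzymes that fell numbered 14 of 18, with a median log2 fold change of -0.56 for the 18 and 0.00 for all genes tested. The largest falls were those of Fdps (-1.07 ± 0.15, adjusted p = 0.000229) and Msmo1 (-1.02 ± 0.11, adjusted p = 6.3e-05), followed by Mvd (-0.76 ± 0.15), Nsdhl (-0.76 ± 0.11) and Idi1 (-0.73 ± 0.15). The 4 not called were Mvk (-0.22 ± 0.15), Lss (0.05 ± 0.18), Sc5d (0.08 ± 0.11) and Dhcr7 (-0.07 ± 0.14). Elovl1 (-0.75 ± 0.13, adjusted p = 0.00067) and Scd1 (-0.32 ± 0.09, adjusted p = 0.00996) fell among fatty acid enzymes, while Srebf1 (0.45 ± 0.11, adjusted p = 0.00486), Srebf2 (0.42 ± 0.15, adjusted p = 0.029), Scd2 (0.39 ± 0.09, adjusted p = 0.00408), Acly (0.43 ± 0.10, adjusted p = 0.00309) and Fasn (0.51 ± 0.18, adjusted p = 0.033) rose. Sphingolipid enzymes fell for 5 of 7, led by Ugt8a (-0.65 ± 0.17, adjusted p = 0.0068) and Cers2 (-0.58 ± 0.09, adjusted p = 0.000361). Without P21 replicate 2 the count of sterol enzymes that fell was 13, Tm7sf2 losing its call (adjusted p = 0.126). The calls of Srebf2, Fasn and Sptlc2 were lost on leaving out any of 4, 5 and 5 libraries (up to 0.124, 0.148 and 0.121), all of these P21 or adult. Quantile normalisation ended the calls of Srebf2 (0.24, adjusted p = 0.152), Fasn (0.29, adjusted p = 0.164), Acly (0.21, adjusted p = 0.0665) and Tm7sf2 (-0.39, adjusted p = 0.0512).

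Reads of the Y-linked gene Eif2s3y were few or absent in 4 libraries: adult replicate 3, P21 replicates 1 and 2, and the first of P14. Counts of Xist were 24201 to 44422 in these libraries and at most 1107 in the others. The makeup of P21 therefore differed from that of the other ages. Unlike P14 and adults, P3 and P7 held none of these 4 libraries. Without them P21 had 1 library, so counts of calls with P21 in that fit are not given. The median sterol log2 fold change of adult over P21 was then -0.44, against -0.56 with all libraries. Nsdhl and Ebp lie on the X chromosome. Without the 4 libraries the median sterol log2 fold change was -0.16 for P14 over P7, against -0.23 with all libraries. It was -0.70 for adult over P7, against -0.74, and -0.15 for adult over P3, against -0.20. The part of sex in the results was not tested beyond these values.

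Set against P7 rather than P21, adults were lower for 23 genes and higher for 8. Of all genes tested 67.6% were called, 34.1% lower and 33.5% higher. Among sterol enzymes 14 of 18 fell, with a median of -0.74, and 1 rose. The largest falls were those of Acat2, with counts of 3284, 3073 and 3030.3 at P3, 4207, 4218 and 4199.7 at P7, 2608, 2362 and 3327 at P14, 2021, 2684 and 2049.7 at P21 and 1764, 1556 and 1463 in adults, and Nsdhl (chrX:72918521-72958528), with counts of 2094, 2012 and 1926 at P3, 3466, 3371 and 3477 at P7, 2676, 2505 and 2894 at P14, 1987, 2763 and 2076 at P21 and 1468, 1289.5 and 1229.8 in adults. For both genes the P7 libraries were the highest and the adult libraries the lowest, with no overlap with any other age. The log2 fold change of adult over P7 was -1.40 ± 0.13, adjusted p = 4.12e-07 for Acat2 and -1.37 ± 0.11, adjusted p = 1.19e-07 for Nsdhl. Sc5d was the exception, with counts of 778, 723 and 758 at P3, 1074, 1196 and 955 at P7, 1043, 1189.7 and 1482 at P14, 1299, 1304 and 1357 at P21 and 1472, 1388 and 1321 in adults. It was lowest at P3, and its adult libraries lay above those of P7 (0.38 ± 0.11, adjusted p = 0.00903). The pattern of a rise from P3 to P7 and a fall from P7 to adult held for 20 of the 39 genes, made up of 12 of 18 sterol enzymes, 2 of 11 fatty acid enzymes (Elovl1 and Elovl6) and 6 of 7 sphingolipid enzymes, where 6.61% of all genes tested showed it. Both comparisons share the P7 libraries. Fa2h was the sphingolipid enzyme outside that pattern (0.90 ± 0.17, adjusted p = 0.000424 for adult over P7).

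Compared with P3, adults were higher for 18 genes and lower for 10. Of all genes tested 68.7% were called, 34.4% higher and 34.3% lower. With quantile normalisation 11 were higher and 13 lower. Fatty acid enzymes were mostly higher (8 of 11, and 5 of 11 with quantile normalisation), led by Scd1, Elovl7 (1.21 ± 0.18, adjusted p = 5.31e-05) and Scd2 (1.19 ± 0.09, adjusted p = 7.58e-08), and Fads2 was lower (-0.77 ± 0.25, adjusted p = 0.0139). Acly, with counts of 10221, 10120.2 and 10785 at P3, 10729.9, 11154 and 10971 at P7, 10813, 11971 and 13699 at P14, 12083, 10036 and 13023 at P21 and 15916, 15808 and 15380.5 in adults, was higher (0.60 ± 0.10, adjusted p = 8.54e-05), its adult libraries above all others. With quantile normalisation the Acly difference was 0.20 and lost its call (adjusted p = 0.0573). Fasn, with counts of 9706, 10454 and 12520.5 at P3, 12887, 12816 and 11881 at P7, 9149.5, 11576 and 13859.7 at P14, 10724, 8372 and 14879 at P21 and 15496, 15849.7 and 15653 in adults, was higher by 0.53 ± 0.18, adjusted p = 0.0185, with P21 replicate 2 the lowest library of all. The Fasn call was lost without P3 replicate 1 or 2 (up to 0.0692) and with quantile normalisation (0.465), and that of Fads2 without P3 replicate 1 (0.0553). Of sterol enzymes 8 were lower, among them Acat2 (-0.98 ± 0.13, adjusted p = 1.27e-05), Mvd (-0.85 ± 0.15, adjusted p = 0.000153), Nsdhl (-0.60 ± 0.11, adjusted p = 0.000264) and Hsd17b7 (-0.58 ± 0.11, adjusted p = 0.000364), and 4 were higher, namely Sc5d (0.89 ± 0.11, adjusted p = 1.02e-05), Pmvk (0.40 ± 0.10, adjusted p = 0.00221), Fdft1 (0.30 ± 0.10, adjusted p = 0.017) and Msmo1 (0.27 ± 0.11, adjusted p = 0.0343). Leaving out single libraries ended the calls of Msmo1 (P3 replicates 1 and 3, adult replicates 1 and 3), Fdft1 (adult replicate 1), Cyp51 (all P3 libraries, adult replicates 2 and 3) and Tm7sf2 (P3 replicate 1, adult replicate 3), with adjusted p up to 0.120. Quantile normalisation ended those of Msmo1 (0.09, adjusted p = 0.480), Fdft1 (0.18, adjusted p = 0.144), Tm7sf2 (-0.36, adjusted p = 0.0513) and Fads1 (0.04, adjusted p = 0.672). Fa2h (1.93 ± 0.17, adjusted p = 3.4e-07) and Ugt8a (1.04 ± 0.17, adjusted p = 8.54e-05) stayed above P3, Degs1 was higher (0.27 ± 0.08, adjusted p = 0.00908) and Sptlc1 was lower (-0.40 ± 0.07, adjusted p = 0.000133). With quantile normalisation Degs1 was at -0.01 and lost its call (limma adjusted p = 0.916). Of the 7 sphingolipid enzymes 2 were then higher and 3 lower, against 3 and 1.

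As shares of the summed normalised counts of a library, the 18 sterol enzymes made up 0.118% to 0.126% at P3, 0.186% to 0.200% at P7, 0.147% to 0.199% at P14, 0.145% to 0.173% at P21 and 0.0933% to 0.109% in adults. The 11 fatty acid enzymes, of which Scd2 is the most abundant, made up 0.278% to 0.293% at P3, 0.353% to 0.374% at P7, 0.430% to 0.515% at P14, 0.417% to 0.459% at P21 and 0.459% to 0.483% in adults. The 7 sphingolipid enzymes went from 0.0717% to 0.0777% at P3 to 0.145% to 0.193% at P14 and 0.0855% to 0.0902% in adults. The adult and P7 libraries did not overlap for any of these groups, sterol and sphingolipid shares being lower in adults and the fatty acid share higher. The fatty acid sums were 134567 to 141185 at P7 and 196589 to 205318 in adults. Within them the means at P7 and in adults were 64316 and 114210 for Scd2 and 13889 and 24724 for Scd1. Of the 11 enzymes 4 rose and 3 fell from P7 to adult, where 33.5% of all genes tested were higher and 34.1% lower. The fatty acid share therefore does not stand for the other enzymes.

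Related genes outside the 39 were counted from lists of pathway genes, beside the shares of all genes tested. At P7 over P3, where 15.4% of all genes were higher and 12.8% lower, 4 of 13 other sterol and SREBP pathway genes tested rose and 0 fell, 11 of 23 other genes of fatty acid synthesis and activation rose and 1 fell, 3 of 19 other sphingolipid synthesis genes rose and 1 fell, and 5 of 13 sphingolipid breakdown genes rose and 3 fell. Acsl3, which activates long chain fatty acids, rose by 1.33 ± 0.13, adjusted p = 2.72e-05. Tecr, the reductase of the elongation cycle, rose by 0.58 ± 0.10, adjusted p = 0.00103 and, unlike Acsl3 (-0.83 ± 0.13), was higher in adults than at P7 (0.56 ± 0.10). Sptssa, a small subunit of serine palmitoyltransferase, rose at P7 (0.65 ± 0.14, adjusted p = 0.00541) and fell by adult age (-1.39 ± 0.14, adjusted p = 1.59e-06). Between adult and P7, where 33.5% of all genes were higher and 34.1% lower, 12 of 20 genes of sterol export, storage and uptake were higher and 5 lower, among them Apod, a lipid binding apolipoprotein (2.82 ± 0.19, adjusted p = 2.54e-08), which was higher, and Abca1, a sterol exporter (-0.96 ± 0.15, adjusted p = 6.1e-05), which was lower. In the same comparison 4 of 13 other sterol and SREBP pathway genes were higher and 6 lower. Of other genes of fatty acid synthesis and activation 13 of 23 were higher and 5 lower. Other sphingolipid synthesis genes were higher for 9 of 19 and lower for 8. Of sphingolipid breakdown genes 3 of 13 were higher and 7 lower in adults than at P7. Psap, the precursor of saposins, was higher (1.11 ± 0.08, adjusted p = 4.45e-08) and Smpd3, a neutral sphingomyelinase, lower (-4.02 ± 0.27, adjusted p = 2.34e-08).

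Some of these levels could include reads from other loci, since the use of strand in counting is not given in the sources used here. Exons of Fdft1 overlap those of Ctsb on the opposite strand over 774 bases (18.3% of Fdft1 exon length), Tm7sf2 overlaps Vps51 over 532 bases, and Cyp51 overlaps Akap9 over 166 bases. Acat2 is 97.7% identical to Acat3 over 1477 bases, and Fdps and Idi1 have near-identical pseudogenes, so their levels are uncertain.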

How the data were processed

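Signal values are, per the file headers, normalised counts deposited by the authors for 18536 genes in 15 libraries. Partek, TopHat2, DESeq2 and build mm10 are named in the submitters' processing notes; annotation, strand use and filters are not given in the sources used here. Reads were recovered by dividing the deposited values by the worth of 1 read in each library, which gave whole numbers within 0.1 for 99.94% of positive values; 3 reads equal 2.53 to 3.65 normalised counts, covering counting error only. Per the labels' protocols, each library pooled the cochleae of 1 mouse, RNA was extracted with the miRNeasy kit and libraries were made with TruSeq kits.

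Values were tested as log2(value + 1) with limma 3.58.1 (R 4.3.3, trend and robust) in 1 fit of all libraries, keeping genes with at least 10 in at least 3 libraries; p-values are two-sided and Benjamini-Hochberg adjusted over 16723 genes. The script was tested on simulated data. edgeR 4.0.16 and DESeq2 1.42.0 on recovered reads were alternatives, with other filters, pseudocounts, scalings and left-out libraries. The members and lists were chosen with earlier results of these data known. All members could be named; of each related list up to 5 genes by highest mean, and of each marker list the first 4. Related genes absent from the table were not analysed here. Gene spans are those of the deposited table; lengths and overlaps come from GENCODE M21 and promoters from RefSeq. The authors' own test columns were not used. Replicate numbers were not taken to pair libraries.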

Additional observations from a re-analysis of the deposited data

How the results depend on the processing

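Of 234 results (39 genes in 6 comparisons of ages) 133 were called, and 87 of these kept their call and direction in every alternative. Normalising to quantiles ended 16 calls without a change of sign. It reversed the sign of Cers2 between adult and P3 (-0.24, against 0.07) and of Degs1 there (-0.0117, against 0.27). The call of Degs1 was also lost (limma adjusted p = 0.916), and the cause was not tested. TMM scaling, pseudocounts of 0.1 or 10, dropping the filter or raising it to 50, edgeR, DESeq2 and limma-voom ended none. The counts of calls for P7 against P3, adult against P3 and adult against P7 stayed within 1.5 times of the values reported. Between P14 and P7, 14 calls became 9 to 18 on leaving out single libraries (9 without P7 replicate 5) and 22 without P14 replicate 3 and P21 replicate 2. Between P21 and P14, 5 calls became 10 with DESeq2 and 0 with only those ages in the fit. On leaving out single libraries the count was 1 to 8. The libraries that moved that count by over 1.5 times were P7 replicates 4 and 5, P14 replicates 2 and 3, P21 replicate 2 and adult replicate 3. Between adult and P21, 27 calls became 12 without the libraries low in Eif2s3y, which leaves P21 with fewer samples. With the replicate number as a block, possible only among P3, P14, P21 and adult, calls numbered 2 for P21 against P14, 26 for adult against P21 and 25 for adult against P3. The numbers share only a label: 5 of 18 same-numbered pairs correlated above 0.1 (r from -0.23 to 0.32). A joint test with the block was not run. With 3 libraries per age, p-values set differences between ages against the spread among these libraries only. That spread was estimated over all ages in 1 fit.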
